A study of Mus musculus with 8 samples.

Results

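The 10 genes described here encode the subunits of the transcription factor NF-kappaB (Nfkb1, Nfkb2, Rel, Rela and Relb) and proteins that restrain or tune it, many of them induced by it (Nfkbia, Nfkbie, Nfkbiz, Bcl3 and Tnfaip3). They were taken by symbol from a table of 34450 genes, and all 10 were present. The kidneys, 8 libraries in all, came from C57BL/6J mice aged 8 weeks, and were taken on day 3 after renal ischaemia-reperfusion injury (IRI), in which blood flow is stopped and then restored. In 4 libraries, called HxIRI, the mice were exposed to hypoxia before the injury, and in the other 4, called IRI, they were kept in normoxia before it. The comparison asks what preconditioning by low oxygen changed in the injured kidney. All 8 kidneys were injured and no uninjured kidney was analysed here. The labels do not say that each library came from a separate mouse, so the p-values cover no more than the variation among the libraries, part of which could be technical. Over genes, HxIRI libraries 1 and 2 resembled each other (Spearman correlation 0.924), as did HxIRI libraries 3 and 4 (0.921), against 0.833 to 0.853 across these pairs. Whether the 4 HxIRI libraries are 4 independent samples cannot be told from the labels.

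NF-kappaB proteins bind DNA as pairs of subunits that share a Rel homology region. In resting cells the pairs of the canonical pathway, such as Rela with the processed product of Nfkb1, are held in the cytoplasm by I-kappaB proteins, and the IKK kinase complex triggers the destruction of these inhibitors after signals such as tumour necrosis factor or interleukin-1. The non-canonical pathway acts through the kinase encoded by Map3k14 on the precursor encoded by Nfkb2, whose product pairs with Relb. In the ischaemic kidney NF-kappaB is known as a driver of chemokine and adhesion molecule genes in tubule cells and in leukocytes that enter the tissue. Several of its targets encode its own subunits and inhibitors, and the induction of the inhibitors forms a negative feedback loop.

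The libraries differed in ways that the groups did not explain. Values were FPKM, fragments scaled to transcript length and to library depth. Shares of fragments were computed back from FPKM and exon length. Ribosomal RNA, here nuclear and mitochondrial rRNA genes together with the gene AY036118, took 21.5% to 67.4% in the HxIRI libraries and 13.5% to 72.5% in the IRI libraries. Protein-coding genes outside the mitochondrial genome took 20.3% to 56.7% and 21.5% to 60.3%. HxIRI libraries 3 and 4 lay low together, with 20.3% and 21.5% of fragments in protein-coding genes, against 42.5% and 56.7% in HxIRI libraries 1 and 2. IRI library 5 stood apart from the rest, with a mean Spearman correlation of 0.633 with the other libraries, where the remaining libraries had 0.767 to 0.832. In it, protein-coding genes with 6650 or more bases of exon sequence had a median deviation of -0.68 on the log2 scale, and those with 2701 or fewer a median deviation of 0.61. Results below are therefore given with and without this library where it mattered.

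The promoters of most of these genes held the DNA motif that NF-kappaB itself binds, and they are shown because the genes are members of a loop that acts on its own promoters. RefSeq start sites on GRCm38.p6 gave 10 windows, from 250 bases before to 50 bases after a start, for 7 of the 10 members. The kappaB consensus, a 10-base motif searched on both strands, was present in windows of 6 of these 7 (8 of the 10 windows), and in 4.51% of all 32851 windows (1480 windows). At least 2 matches were found in 0.554% of all windows. In the sequences below, written 5′ to 3′ on the strand of the gene, capitals mark every base covered by a match.
Nfkb2, chr19:46304487-46304786, plus strand: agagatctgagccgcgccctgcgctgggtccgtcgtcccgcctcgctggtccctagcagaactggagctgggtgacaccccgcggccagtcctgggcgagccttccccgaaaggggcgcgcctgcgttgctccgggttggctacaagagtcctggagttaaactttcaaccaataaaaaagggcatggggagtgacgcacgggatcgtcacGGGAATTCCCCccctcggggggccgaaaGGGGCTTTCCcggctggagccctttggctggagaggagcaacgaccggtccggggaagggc
Rel, chr11:23770920-23771219, minus strand: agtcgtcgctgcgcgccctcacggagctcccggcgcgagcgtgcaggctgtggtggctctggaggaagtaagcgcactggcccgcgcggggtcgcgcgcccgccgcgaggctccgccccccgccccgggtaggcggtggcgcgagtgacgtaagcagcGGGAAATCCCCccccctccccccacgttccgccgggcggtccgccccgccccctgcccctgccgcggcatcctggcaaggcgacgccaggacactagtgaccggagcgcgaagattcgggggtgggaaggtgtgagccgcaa
Nfkbia, chr12:55492598-55492897, minus strand: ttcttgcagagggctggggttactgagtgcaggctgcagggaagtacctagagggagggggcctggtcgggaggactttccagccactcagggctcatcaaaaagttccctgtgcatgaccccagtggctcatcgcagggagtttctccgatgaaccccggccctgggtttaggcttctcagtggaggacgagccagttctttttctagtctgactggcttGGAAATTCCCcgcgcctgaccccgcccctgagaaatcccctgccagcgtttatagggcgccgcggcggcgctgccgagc
Nfkbie, chr17:45555450-45555749, plus strand: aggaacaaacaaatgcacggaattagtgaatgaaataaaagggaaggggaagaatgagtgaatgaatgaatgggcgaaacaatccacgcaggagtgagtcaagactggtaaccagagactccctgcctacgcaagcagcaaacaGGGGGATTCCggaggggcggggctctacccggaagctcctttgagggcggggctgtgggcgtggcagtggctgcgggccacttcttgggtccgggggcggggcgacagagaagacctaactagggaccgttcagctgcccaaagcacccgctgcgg
Bcl3, chr7:19822706-19823005, minus strand: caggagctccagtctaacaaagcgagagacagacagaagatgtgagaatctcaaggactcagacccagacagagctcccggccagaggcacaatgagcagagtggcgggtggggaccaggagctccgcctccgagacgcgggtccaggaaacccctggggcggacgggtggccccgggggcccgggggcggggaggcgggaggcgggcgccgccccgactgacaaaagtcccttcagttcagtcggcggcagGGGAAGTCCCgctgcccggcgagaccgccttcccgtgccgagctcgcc
Tnfaip3, chr10:19015361-19015660, minus strand: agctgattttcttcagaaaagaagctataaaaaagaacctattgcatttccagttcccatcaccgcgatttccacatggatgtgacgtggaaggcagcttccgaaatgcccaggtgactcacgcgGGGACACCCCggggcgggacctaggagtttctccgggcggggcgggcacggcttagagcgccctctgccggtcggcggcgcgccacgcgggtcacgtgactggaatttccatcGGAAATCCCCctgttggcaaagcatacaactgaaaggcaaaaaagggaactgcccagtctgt
The first window of Nfkb2 held 2 overlapping matches that start at -39 and -38, and 1 more at -11, counted from the start site as +1. A later start site of Nfkb2 had a match at +11, GGGACTTTCC, which lies also in the overlapping window of the next start site. Rel held 2 overlapping matches at -92 and -91, Nfkbia 1 at -29, Nfkbie 1 at -106 and Bcl3 1 at +3. Tnfaip3 held matches at -125 and -12 of its first start site. The Rela window, chr19:5637291-5637590 on the plus strand, held no match. A match is a run of letters and does not show that a factor was bound there in these kidneys.

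Nfkbia had the highest mean FPKM of the members and Rel the lowest. Over the 8 libraries the mean level was 11.9 FPKM for Nfkbia, 8.04 FPKM for Rela, 6.82 FPKM for Nfkb2 and 4.20 FPKM for Bcl3. Nfkbiz averaged 2.60 FPKM, Relb 2.46 FPKM, Nfkbie 2.13 FPKM and Nfkb1 1.93 FPKM, while Tnfaip3 averaged 0.95 FPKM and Rel 0.429 FPKM. FPKM is scaled to length, so these levels can be set beside each other. Nfkb2 exceeded Bcl3, and Nfkb1 exceeded Tnfaip3, in 8 of 8 libraries, and Nfkbia exceeded Rela in 7 of 8. Neighbours from Bcl3 to Nfkb1 did not keep one order. Bcl3 exceeded Nfkbiz in 4 of 8 libraries, and Relb exceeded Nfkbie, and Nfkbie exceeded Nfkb1, in 3 of 8.

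**Figure D1:**
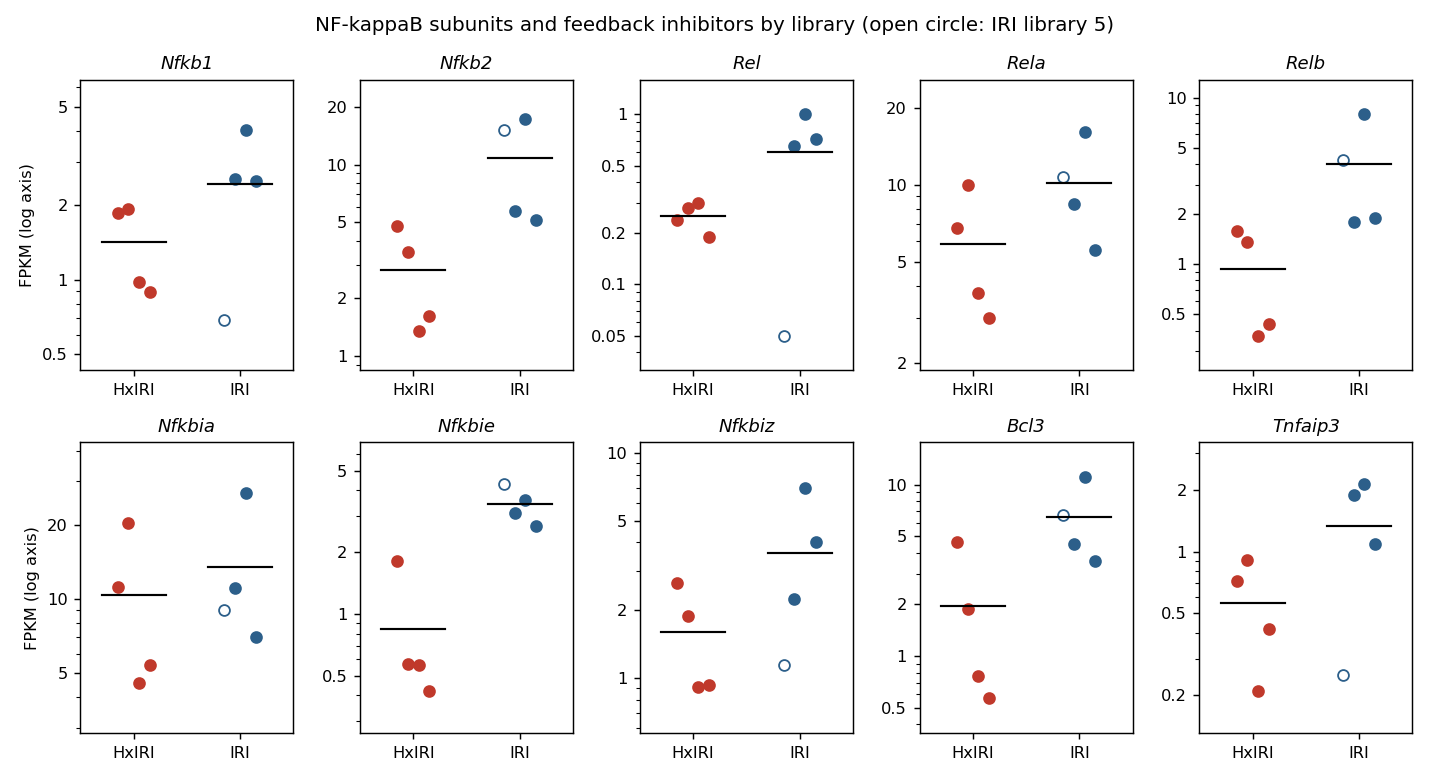
FPKM of the 10 genes in each library on a log axis, with HxIRI in red and IRI in blue; the bar is the group mean (n = 4 each) and the open circle is IRI library 5. The groups are separate for Nfkb2, Relb and Nfkbie, and IRI library 5 lies lowest of its group for Nfkb1, Rel, Nfkbiz and Tnfaip3.

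All of these genes had lower mean FPKM in HxIRI than in IRI kidneys, but none passed the test across all genes in the values as deposited. The non-canonical subunits Nfkb2 and Relb and the inhibitors Nfkbie and Bcl3 had the largest differences, with log2 changes between -1.53 and -1.72. The other tested members lay between -0.41 (Nfkbia) and -0.83 (Nfkbiz). The test was limma's moderated test on log2(FPKM + 0.5) in 14444 genes with a mean of at least 0.5 FPKM, adjusted by the Benjamini-Hochberg method, and 9 of the 10 members entered it. Rel, at a mean of 0.429 FPKM, was below the filter. Among the 9, 0 were higher and 0 lower at an adjusted p under 0.05, where 131 of all tested genes (0.907%) passed, 44 higher and 87 (0.602%) lower. With TMM scaling, described below, 175 were higher and 191 lower among all tested genes. At an unadjusted p under 0.05, 4 of the 9 were lower (Nfkb2, Relb, Nfkbie and Bcl3), against 6.84% of all tested genes. The log2 change was negative in 9 of 9 members and in 61% of all tested genes, and its median was -0.83 for the 9 members and -0.14 for all tested genes. Without the filter, the median over all 10 members was -0.81, against -0.041 over 30982 genes. A lower level in whole kidney can mean fewer cells of a type or less RNA per cell, and these cannot be told apart here.

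Nfkb2, the precursor of the non-canonical subunit, had 4.76, 3.50, 1.35 and 1.61 FPKM in HxIRI libraries 1 to 4, against 15.17, 5.69, 17.34 and 5.13 FPKM in IRI libraries 5 to 8. Every HxIRI value lay below every IRI value, with IRI libraries 5 and 7 far above the other IRI libraries. The means were 2.81 ± 1.62 FPKM in HxIRI and 10.8 ± 6.33 FPKM in IRI kidneys (SD, n = 4 each), with a log2 change of -1.72 ± 0.60 (SE) and a limma adjusted p of 0.220. Nfkb2 lies at chr19:46304320-46312385 on the plus strand, and this and all positions below are those of GENCODE M21 on GRCm38. Its end overlaps that of Psd on the other strand, and a bidirectional promoter transcript overlaps its start, so reads could be shared where strand was not used in the counting.

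Relb (chr7:19606217-19629438, minus strand), the partner of the Nfkb2 product, had 1.59, 1.36, 0.37 and 0.44 FPKM in HxIRI libraries 1 to 4, against 4.23, 1.78, 7.99 and 1.90 FPKM in IRI libraries 5 to 8. The groups did not overlap, although HxIRI library 1 was close to IRI library 6. It averaged 0.94 ± 0.626 FPKM in HxIRI and 3.98 ± 2.90 FPKM in IRI kidneys (SD, n = 4 each), which gave a log2 change of -1.53 ± 0.51 (SE, limma adjusted p = 0.188). Groups that did not overlap, with HxIRI below IRI, were seen in 3 of the 9 tested members (Nfkb2, Relb and Nfkbie) and in 3.06% of all tested genes.

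Among the canonical subunits, Rela (chr19:5637483-5648130, plus strand) carries the main activation domain of the family. It had 6.77, 9.96, 3.78 and 3.01 FPKM in HxIRI libraries 1 to 4, against 10.73, 8.42, 16.09 and 5.54 FPKM in IRI libraries 5 to 8. The groups overlapped, with HxIRI library 2 above IRI libraries 6 and 8, and the log2 change of -0.78 ± 0.62 (SE) did not pass in limma (adjusted p = 0.864). Nfkb1 (chr3:135584655-135691547, minus strand), which gives the DNA-binding partner of Rela, had 1.87, 1.93, 0.98 and 0.89 FPKM in HxIRI libraries 1 to 4, against 0.69, 2.55, 4.02 and 2.50 FPKM in IRI libraries 5 to 8. IRI library 5 was the lowest of all 8 libraries for this gene, and IRI libraries 6 to 8 lay above every HxIRI library. The log2 change was -0.51 ± 0.48 (SE, limma adjusted p = 0.914), and -0.90 without IRI library 5 (adjusted p = 0.430). Without IRI library 7, the highest, it was -0.26 (adjusted p = 0.944).

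Rel (chr11:23736847-23770970, minus strand), the c-Rel subunit known best from lymphocytes and macrophages, was near the limit of these libraries. It had 0.24, 0.28, 0.30 and 0.19 FPKM in HxIRI libraries 1 to 4, against 0.05, 0.65, 1.0 and 0.72 FPKM in IRI libraries 5 to 8. As for Nfkb1, IRI library 5 held the lowest value and IRI libraries 6 to 8 held more than any HxIRI library. The depth estimated from the spacing of low FPKM values puts these levels at roughly 5 to 111 fragments per library, so the lowest value rests on very few. In a fit with no filter on mean FPKM, the log2 change of Rel was -0.47 (limma adjusted p = 0.832). Few fragments also lie behind the lowest values of other members, roughly 12 for Relb, 11 for Nfkbie, 12 for Bcl3 and 13 for Tnfaip3. Each of these lowest values was in HxIRI library 3 or 4.

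The cytoplasmic inhibitors Nfkbia and Nfkbie had unlike values. Nfkbia (chr12:55489410-55492647, minus strand), encoding I-kappaB alpha, the fast-resynthesised inhibitor of Rela pairs, had 11.21, 20.31, 4.58 and 5.39 FPKM in HxIRI libraries 1 to 4, against 8.98, 11.08, 26.96 and 7.04 FPKM in IRI libraries 5 to 8. The groups overlapped widely, with the second highest value in HxIRI library 2, and the log2 change of -0.41 ± 0.68 (SE) did not pass in limma (adjusted p = 0.998). It was -0.80 without HxIRI library 2 and between -0.19 and -0.023 without HxIRI library 3, HxIRI library 4 or IRI library 7 in turn. Nfkbie (chr17:45555703-45563169, plus strand), encoding I-kappaB epsilon, had 1.82, 0.57, 0.56 and 0.42 FPKM in HxIRI libraries 1 to 4, against 4.29, 3.12, 3.59 and 2.68 FPKM in IRI libraries 5 to 8. Its groups did not overlap, and HxIRI library 1 stood above the other HxIRI libraries. It averaged 0.843 ± 0.655 FPKM in HxIRI and 3.42 ± 0.689 FPKM in IRI kidneys (SD, n = 4 each), with a log2 change of -1.64 ± 0.46 (SE, limma adjusted p = 0.0858), the smallest p of the 9 members. The difference between the changes of these inhibitors was not tested.

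Bcl3 and Nfkbiz encode nuclear I-kappaB proteins, which bind subunit pairs on DNA and can raise or lower transcription. Bcl3 (chr7:19808462-19822770, minus strand) had 4.61, 1.88, 0.76 and 0.57 FPKM in HxIRI libraries 1 to 4, against 6.67, 4.52, 11.01 and 3.60 FPKM in IRI libraries 5 to 8. HxIRI library 1 overlapped the IRI range and HxIRI libraries 2 to 4 lay below it, with a log2 change of -1.67 ± 0.57 (SE, limma adjusted p = 0.197). Antisense transcripts lie within Bcl3, so its reads could include theirs where strand was not used in the counting. Nfkbiz (chr16:55811375-55838899, minus strand) had 2.65, 1.89, 0.91 and 0.93 FPKM in HxIRI libraries 1 to 4, against 1.14, 2.25, 6.96 and 4.03 FPKM in IRI libraries 5 to 8. The groups overlapped, with IRI library 5 lowest in its group, and the log2 change of -0.83 ± 0.52 (SE) did not pass in limma (adjusted p = 0.740). It was -1.20 without IRI library 5 and -0.47 without IRI library 7 (adjusted p = 0.357 and 0.904).

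Tnfaip3 (chr10:19000910-19015657, minus strand) encodes a ubiquitin-editing enzyme that ends signalling to IKK. It had 0.72, 0.91, 0.21 and 0.42 FPKM in HxIRI libraries 1 to 4, against 0.25, 1.88, 2.12 and 1.09 FPKM in IRI libraries 5 to 8. IRI library 5 lay within the HxIRI range and IRI libraries 6 to 8 above it. The log2 change was -0.68 ± 0.45 (SE, limma adjusted p = 0.775), and -1.06 without IRI library 5 (adjusted p = 0.263). Without IRI library 7, the highest, it was -0.46 (adjusted p = 0.904).

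IRI library 5 divided the members by exon length. Relative to the median of IRI libraries 6 to 8, its level was 0.0694 times for Rel (7466 bases of summed exons), 0.133 times for Tnfaip3 (7226 bases), 0.271 times for Nfkb1 (12061 bases) and 0.283 times for Nfkbiz (5018 bases). The members from 2475 to 4584 bases, Bcl3, Nfkbie, Rela, Relb and Nfkb2, were at 1.27 to 2.67 times that median, and the shortest, Nfkbia (1610 bases), was at 0.810 times. The members with the longest exon sequence were thus the ones lowest in this library, as long genes were in it generally. With IRI library 5 left out, the HxIRI values lay below all IRI values for 6 of the 10 members (Nfkb1, Nfkb2, Rel, Relb, Nfkbie and Tnfaip3), or 5 of the 9 tested, against 8.24% of all genes tested without it. At an unadjusted p under 0.05, 7 of the 9 were then lower, against 7.72% of all genes tested without it, and 0 had an adjusted p under 0.05 in limma.

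**Figure D2:**
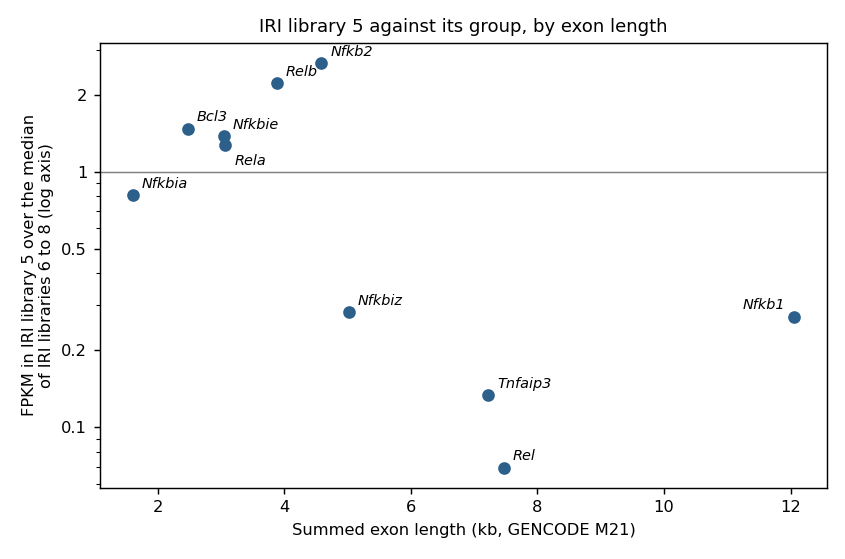
FPKM in IRI library 5 divided by the median of IRI libraries 6 to 8 (log axis) against summed exon length in kilobases, with 1 point per gene. Nfkbiz, Tnfaip3, Rel and Nfkb1 lie at 0.283 or below, and the other 6 genes at 0.810 or above.

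The number of members that passed changed with the scaling of the libraries to each other, among other settings. TMM scaling, which equalises the bulk of genes between libraries, brought the median log2 change over all tested genes to 0.016, against -0.14 as deposited, and 1 of the 9 members fell, Nfkbie (log2 change -1.51 ± 0.32, SE, limma adjusted p = 0.0434), where 1.32% of all tested genes fell. After TMM scaling the HxIRI values lay below all IRI values for 5 of the 9 members (Nfkb2, Rela, Relb, Nfkbie and Bcl3), against 6.25% of all tested genes. Nfkb2 then had 3.82, 2.47, 2.09 and 2.43 in HxIRI libraries 1 to 4, against 16.9, 5.64, 9.15 and 6.65 in IRI libraries 5 to 8, in scaled FPKM. With protein-coding scaling, to a common sum of FPKM in protein-coding genes, the groups of Rela and Bcl3 overlapped, as they did as deposited. Nfkb2 in IRI library 5 was then 7.255, against 7.57, 10.02 and 9.862 in IRI libraries 6 to 8. With quantile normalization 4 of the 9 fell, Nfkb2, Relb, Nfkbie and Bcl3 (adjusted p between 0.0176 and 0.0387), against 2.42% of all tested genes.

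With TMM scaling and without IRI library 5, 5 of the 9 members fell, against 5.32% of all tested genes. They were Nfkb2 (log2 change -1.25, limma adjusted p = 0.0140), Relb (-1.23, adjusted p = 0.0252), Nfkbie (-1.33, adjusted p = 0.0320), Bcl3 (-1.41, adjusted p = 0.0397) and Tnfaip3 (-0.91, adjusted p = 0.0379). Nfkb1 (-0.67, adjusted p = 0.0548) and Nfkbiz (-0.97, adjusted p = 0.0536) missed the threshold narrowly. Nfkbia was -0.25 (adjusted p = 0.605) and Rela -0.45 (adjusted p = 0.157). HxIRI libraries 3 and 4, with the smallest protein-coding share, held the lowest FPKM of their group in every member but Rel. Without both of them and as deposited, the log2 changes moved to -1.11 for Nfkb2, -0.97 for Relb, -1.30 for Nfkbie and -0.88 for Bcl3, none with an adjusted p under 0.05. The other tested members then lay between -0.36 (Nfkbiz) and 0.35 (Nfkbia), with Nfkb1 at -0.14 and Tnfaip3 at -0.33. With TMM scaling and without HxIRI libraries 3 and 4 and IRI library 5, the same genes were at -1.12, -1.04, -1.38 and -1.04, and again 0 of the members tested had an adjusted p under 0.05.

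**Figure D3:**
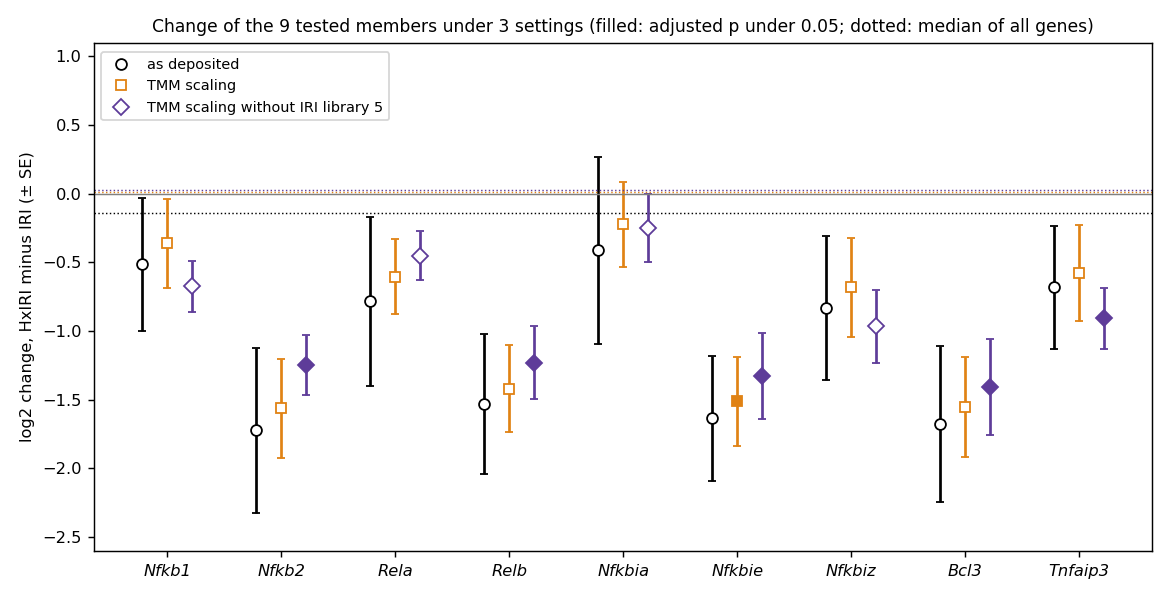
Log2 change (HxIRI minus IRI, ± SE) of the 9 tested genes as deposited, with TMM scaling, and with TMM scaling without IRI library 5; filled symbols have an adjusted p under 0.05 and dotted lines give the median of all tested genes in each setting. Every change is below 0, none is filled as deposited, 1 is filled with TMM scaling and 5 without IRI library 5.

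Ratios between members were taken within a library, on FPKM + 0.5. Without the addition they would not depend on scaling between libraries. For Relb the addition was not small, as Relb had 0.37 and 0.44 FPKM in HxIRI libraries 3 and 4. The ratio of Relb to Rela therefore depends in part on scaling and on the addition. The log2 ratio of Nfkb2 to Nfkb1 was 1.15, 0.72, 0.32 and 0.60 in HxIRI libraries 1 to 4, against 3.72, 1.02, 1.98 and 0.91 in IRI libraries 5 to 8. The groups overlapped, and IRI library 5 was far above the rest. The difference of the means was -1.21 (two-sided exact permutation p = 0.0857, and 0.129 when adjusted over 3 ratios), and -0.61 without IRI library 5 (exact permutation p = 0.171). The log2 ratio of Relb to Rela was -1.80, -2.49, -2.30 and -1.90 in HxIRI libraries 1 to 4, against -1.25, -1.97, -0.97 and -1.33 in IRI libraries 5 to 8. IRI library 6 overlapped the HxIRI range and the other IRI libraries lay above it. The difference was -0.74 (exact permutation p = 0.0857, and 0.129 when adjusted). Nfkbia relative to Rela averaged 0.67 ± 0.31 in HxIRI and 0.29 ± 0.40 in IRI kidneys (SD, n = 4 each), a difference of 0.37 in the other direction (exact permutation p = 0.257, and 0.257 when adjusted). The smallest p that 4 against 4 libraries can give is 0.0286, and none of the 3 ratios passed.

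**Figure D4:**
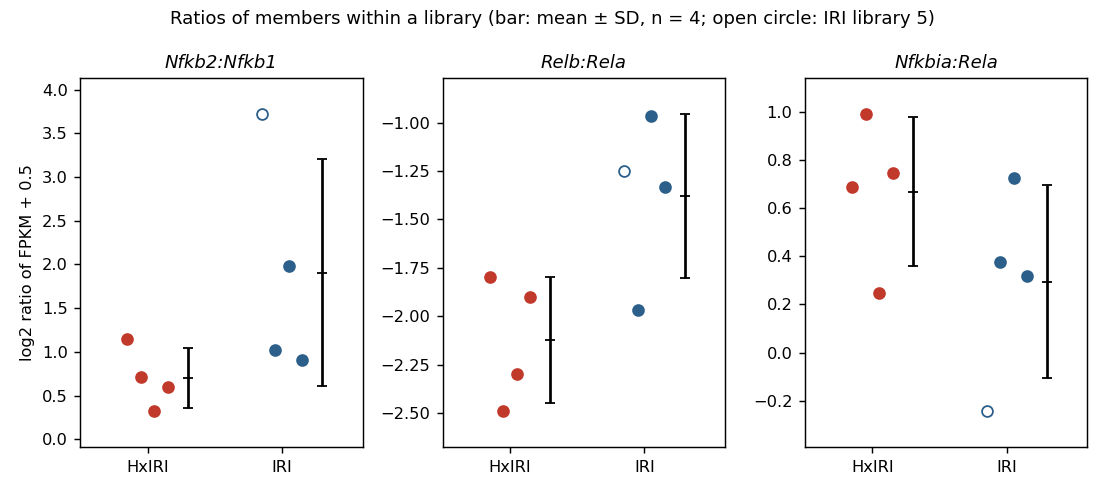
Log2 ratio of (FPKM + 0.5) of 2 genes within each library, HxIRI in red and IRI in blue, with the mean ± SD (n = 4) beside the points and IRI library 5 as an open circle. Nfkb2:Nfkb1 and Relb:Rela lie lower in HxIRI by 1.21 and 0.74 on average with overlapping groups, and Nfkbia:Rela lies higher by 0.37.

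Upstream of the factor, receptors and adaptors gave no call as deposited, with 0 of 17 tested genes higher, 0 lower, and a median log2 change of -0.61. Tnfrsf12a, the receptor for the cytokine TWEAK, averaged 3.19 ± 2.73 FPKM in HxIRI and 18.3 ± 12.6 FPKM in IRI kidneys (SD, n = 4 each), with a log2 change of -2.40 ± 0.68 (SE, limma adjusted p = 0.0895). Tnfrsf1b, the second receptor for tumour necrosis factor, averaged 1.05 ± 0.643 FPKM in HxIRI and 3.87 ± 2.42 FPKM in IRI kidneys (log2 change -1.46 ± 0.49, SE, adjusted p = 0.195). The groups did not overlap for either gene, and Tnfrsf1b fell with TMM scaling (limma adjusted p = 0.0279). Of 12 ligand genes, 3 passed the filter on mean FPKM and 0 of them passed the test in limma, also at an unadjusted p under 0.05 (median -0.48). Tnf was 0 to 0.27 FPKM in HxIRI and 0.18 to 1.09 FPKM in IRI kidneys, and Il1b was 0 to 0.39 FPKM in HxIRI and 0.22 to 2.18 FPKM in IRI kidneys, both below the filter with overlapping groups. Il33, an alarmin, had a log2 change of -0.96 (limma adjusted p = 0.670) and Il18, an inflammasome product, -0.48 (adjusted p = 0.921).

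The kinase complex and its ubiquitin relay stood close to the bulk of genes. Of 27 tested genes 0 were higher and 0 lower as deposited, with a median log2 change of -0.23. The catalytic subunits Chuk (log2 change 0.59 ± 0.63, SE) and Ikbkb (-0.31 ± 0.46), the regulatory subunit Ikbkg (0.15 ± 0.41) and the non-canonical kinase gene Map3k14 (-0.51 ± 0.43) did not pass in limma (adjusted p between 0.886 and 0.999). The smallest p-values of the list were those of Ube2v1, a cofactor of ubiquitin chain building (-1.88, adjusted p = 0.445), and the adaptor gene Card9 (-0.80, adjusted p = 0.598).

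Inhibitors outside the 10 genes gave 0 higher and 0 lower of 14 tested, with a median log2 change of -0.39. Nfkbid, a further nuclear I-kappaB gene, averaged 0.21 ± 0.197 FPKM in HxIRI and 2.17 ± 1.80 FPKM in IRI kidneys (SD, n = 4 each), with groups that did not overlap and a log2 change of -1.69 ± 0.46 (SE, limma adjusted p = 0.0808). It fell with TMM scaling without IRI library 5 (-1.15, adjusted p = 0.0235). Nfkbib, encoding I-kappaB beta, was at -0.50 (adjusted p = 0.968) and Tnip1, whose product works with that of Tnfaip3, at -1.10 (adjusted p = 0.657).

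Among 23 tested targets of NF-kappaB, 1 fell as deposited, against 0.602% of all tested genes. No target rose, and the median log2 change was -1.11. The gene that fell was Ccl2, the chemokine that draws monocytes, at 0.915 ± 0.974 FPKM in HxIRI and 14.7 ± 16.2 FPKM in IRI kidneys (SD, n = 4 each, log2 change -3.15 ± 0.64, SE, limma adjusted p = 0.0172). Without IRI library 7, the highest at 38.73 FPKM, its log2 change was -2.52 (adjusted p = 0.124), and with protein-coding scaling -3.13 (adjusted p = 0.0635). At an unadjusted p under 0.05, 11 of the 23 were lower, against 6.84% of all tested genes, and 0 higher. Of the 11, Ccl20, Cxcl2, Traf1 and Cd83 passed the filter on mean FPKM only through the IRI libraries. They averaged 0.14 to 0.39 FPKM in HxIRI and 0.92 to 3.46 FPKM in IRI kidneys. With TMM scaling 2 of the 23 targets fell, against 1.32% of all tested genes. With TMM scaling without IRI library 5, 9 fell and 1 rose, where 5.32% of all tested genes fell. Lcn2 and Vcam1 of this list are also markers of tubular injury.

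**Figure D5:**
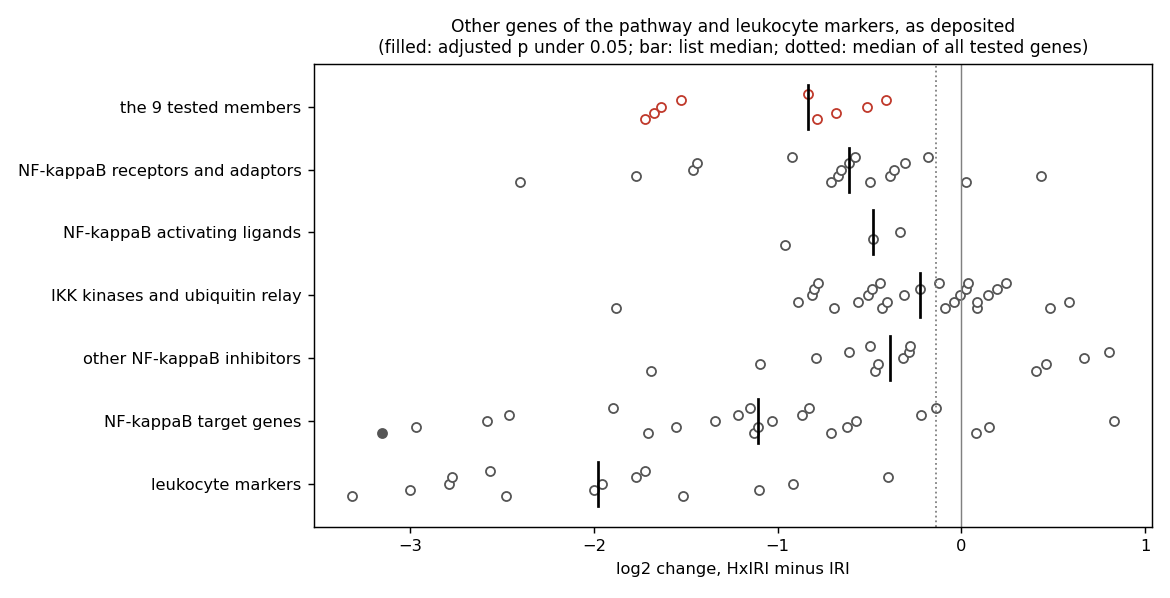
Log2 change (HxIRI minus IRI, as deposited) of each tested gene in the members, 5 lists of the pathway and the leukocyte markers; bars are list medians, the dotted line is the median of all tested genes (-0.14) and filled points have an adjusted p under 0.05. The leukocyte markers lie lowest, with a median of -1.98, and Ccl2 is the only filled point.

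Leukocyte, injury and fibroblast markers had negative median changes, as the NF-kappaB genes did, and tubule and endothelial markers positive ones. The summed FPKM of 23 leukocyte markers was 27.3 to 122.3 in HxIRI and 152.0 to 1164 in IRI kidneys, highest in IRI library 5. The log2 change was negative in 14 of 14 tested leukocyte markers (median -1.98), against 61% of all tested genes. As deposited 0 passed in limma, and 12 were lower at an unadjusted p under 0.05, against 6.84% of all tested genes. Of the 12, Itgam, Itgax and S100a8 passed the filter only through the IRI libraries, with HxIRI means of 0.24 to 0.43 FPKM. With TMM scaling 3 of the 14 leukocyte markers fell, with quantile normalization 9, and with TMM scaling without IRI library 5, 10. Of all tested genes 1.32%, 2.42% and 5.32% fell in these settings. Cd68, a macrophage gene, was at -2.56 ± 0.65 (SE, limma adjusted p = 0.0600) and Tyrobp, a myeloid adaptor gene, at -3.32 ± 0.85 (adjusted p = 0.0600), while the pan-leukocyte gene Ptprc was at -0.40 ± 0.39 (adjusted p = 0.922). No marker in this sum was at 0 in all 8 libraries. After TMM scaling the sum was 42.2 to 98.2 in HxIRI and 197.0 to 1300 in IRI kidneys.

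The tubular injury list had 5 of 15 genes that fell and 0 that rose as deposited (median log2 change -2.46), Timp1 (-4.03), S100a6 (-3.64), Krt20 (-3.10), Cd44 (-2.46) and Sox9 (-2.14). Of all tested genes, 0.602% fell as deposited. Without IRI library 7, 0 of the 15 passed in limma, where 4 of 14071 tested genes fell. With TMM scaling without IRI library 5, 12 fell, against 5.32% of all tested genes. Of 8 fibroblast and pericyte markers 0 passed (median -1.36), with the collagen genes Col1a1 at -2.48 (limma adjusted p = 0.0882) and Col3a1 at -2.23 (adjusted p = 0.162). This list was mixed, with 6 of 8 changes negative and Pdgfra (0.15) and Dcn (0.34) above 0. Of 8 endothelial markers 0 passed (median 0.35), with Flt1 at 0.64 and Kdr at 0.57. Here 2 of the 8 changes were negative, Egfl7 (-0.64) and Cdh5 (-0.09). Proximal tubule markers rose in 2 of 16 (Slc22a7 at 3.72 and Slc7a13 at 3.58, list median 1.07), and thick limb and distal tubule markers in 3 of 8 (Egf at 4.12, Pvalb at 3.12 and Calb1 at 3.10, list median 1.81). Without IRI library 7 these counts were 0 and 2, and with TMM scaling without IRI library 5 they were 11 and 6. Among all tested genes 44 of 14444 rose as deposited. Without IRI library 7 it was 11 of 14071, and with TMM scaling without IRI library 5, 831 of 14414. The summed FPKM of the proximal tubule markers, 3005 to 13976 in HxIRI and 402.1 to 11500 in IRI kidneys, showed tubular RNA in every library. The part that these shifts in other cell types had in the values of the NF-kappaB genes was not tested.

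Genes with the pattern most like that of Nfkbie, the member with the smallest p, were Hist1h4j, Spaca7 and Foxm1. Their log2 values, each centred on the gene's own mean over the 8 libraries, differed from those of Nfkbie by a root mean square of 0.18, 0.28 and 0.28, where Nfkbie itself varied by 0.91. Hist1h4j is a histone gene and Foxm1 a regulator of mitosis. Nearest to Nfkbia, the member with the highest mean FPKM, were Mgat4b, Eif2b1 and Pik3ip1, at 0.12, 0.13 and 0.13, where Nfkbia varied by 0.79. The search covered the 14444 tested genes over 8 libraries, leaving out the members and genes with a predicted-model, clone or accession name. This likeness is a description.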

How the data were processed

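Per the labels' protocols, RNA of frozen kidneys was taken up in Trizol and poly(A)-selected for stranded TruSeq libraries. The submitters' processing notes name HISAT2, StringTie and edgeR, without roles or versions. The genome build is not given in the sources used here. FPKM per gene and library, to 2 decimals, are what the authors deposited, without counts and with 6 empty columns. All 34450 identifiers matched GENCODE M21 (GRCm38), which gave symbols, positions and exon lengths. Depth was estimated from the steps of low FPKM values in genes of 1 exon, at 8400000 to 14900000 fragments per library. It has no interval, so genes near the floor are uncertain.

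log2(FPKM + 0.5) was tested with limma 3.58.1 in R 4.3.3 (eBayes with trend), in genes with a mean of at least 0.5 FPKM and with Benjamini-Hochberg adjustment over all of them at 0.05. This pseudocount understates fold changes of low genes. A gene could pass the filter through 1 group alone, as Sox9 did through IRI and Pvalb through HxIRI. That favours genes that differ between the groups, in the lists and among all tested genes. The fit was checked on simulated data. Ratios were tested by exact permutation over 70 assignments with SciPy 1.17.1. TMM divisors were computed from the published formula on FPKM (30% of ratios and 5% of levels trimmed at each end), as a scaling.

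The members and lists were chosen with earlier results of these data known. Named were all members, in each list up to 4 genes past the threshold (or, with none, the 2 of smallest p), 9 genes by name, and 3 genes most like Nfkbie and Nfkbia. Sox9 was named after its value was seen. Of 24 leukocyte markers 23 were in the table. Alternatives were pseudocounts, filters, scalings, variance settings, library weights and left-out libraries. Removal of a length trend (loess, span 0.5) and leaving out HxIRI libraries 3 and 4, also together with IRI library 5, were chosen after seeing the data.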

Additional observations from a re-analysis of the deposited data

Results flagged for a closer look

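In groups of 4 libraries, a value was marked when its gap to the nearest other value took more of the group's range than the critical value of Dixon's test for 4 samples. For normally distributed values chance does this in about 1 in 20 groups. The rule was applied to FPKM without logs, which cannot fall below 0, so that rate need not hold here. Of 90 groups examined, 12 were marked. Among the members this was Nfkbie alone, at 1.82 FPKM in HxIRI library 1, against 0.42 to 0.57 FPKM in the other HxIRI libraries. HxIRI library 1 also stood above its group for Tnf at 0.27 FPKM (others 0 to 0.04 FPKM) and Card9 at 0.73 FPKM (others 0.05 to 0.12 FPKM). IRI library 7 stood above its group for Il1b at 2.18 FPKM, Card9 at 1.77 FPKM, Ccl2 at 38.73 FPKM, Krt20 at 40.02 FPKM and Col1a1 at 91.53 FPKM. IRI library 5 stood above its group for Timp1 at 220.54 FPKM, Slc22a7 at 2.78 FPKM and Pvalb at 1.42 FPKM. HxIRI library 2 stood above its group for Egf at 142.37 FPKM.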

How the results depend on the processing

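As deposited, 0 members passed in either direction. The number lower was 1 with TMM scaling (Nfkbie), 1 with protein-coding scaling (Nfkb2), 1 at an adjusted p of 0.10 (Nfkbie), 4 with quantile normalization, 3 with the length trend removed (Nfkb2, Relb and Bcl3), 5 with TMM scaling without IRI library 5 and 6 with library weights, a fit that gave IRI library 6 a weight of 45.84 against 0.1732 to 1.413 for the others and did not converge. In the remaining settings it stayed at 0, also with each library left out in turn (0 to 0). No member passed as higher in any setting. The single reversal was Nfkbia, at 0.35 without HxIRI libraries 3 and 4 (adjusted p = 1.0). Leaving out 1 library moved the log2 change of Nfkbie between -1.93 and -1.49 (adjusted p between 0.0567 and 0.314), of Nfkb2 between -2.0 and -1.44, and of Nfkbia between -0.80 and -0.023.

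Over all tested genes, 44 were higher and 87 lower as deposited. The counts were 175 and 191 with TMM scaling, 280 and 349 with quantile normalization, 90 and 141 with protein-coding scaling, 360 and 1297 with library weights, 74 and 201 at an adjusted p of 0.10, 17 and 8 without the variance trend, 831 and 767 with TMM scaling without IRI library 5, 206 and 257 with the length trend removed, 97 and 16 without HxIRI libraries 3 and 4, and 150 and 150 with TMM scaling without these and IRI library 5. They were 0 and 0 without the filter in limma, where 665 higher and 1356 lower genes had an unadjusted p under 0.05. With a pseudocount of 1, 47 were lower, and with a common sum of FPKM 157. Leaving out 1 library gave 11 to 67 higher and 4 to 237 lower, with the fewest of both without IRI library 7 and the most lower without IRI library 8.

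In the 5 pathway lists together 0 were higher and 1 lower as deposited. Lower were 0 without the filter, 5 with the filter of 2 FPKM, 3 with TMM scaling, 7 with quantile normalization, 5 with a common sum, 3 with protein-coding scaling, 2 with robust variance, 0 without the trend, 22 with library weights, 7 at an adjusted p of 0.10, 15 with TMM scaling without IRI library 5, 5 with the length trend removed, 0 without HxIRI libraries 3 and 4, and 4 with TMM scaling without these and IRI library 5. Higher was 1 with quantile normalization and 1 with TMM scaling without IRI library 5. Leaving out 1 library gave 0 to 7 lower. The 3 ratios kept their direction at both other pseudocounts, where none had an exact permutation p under 0.05, and without each library. With 1 library left out the smallest two-sided p possible is 0.0571, so that no call could be made there. The differences with 1 library left out were -1.54 to -0.61 for Nfkb2:Nfkb1, -0.94 to -0.61 for Relb:Rela and 0.19 to 0.52 for Nfkbia:Rela. At pseudocounts of 0.1 and 1 they were -1.29 and -1.13, -1.09 and -0.51, and 0.40 and 0.34 in the same order. The cause of these shifts was not tested. No paired analysis was possible because the groups share no replicate number.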
